A study of Drosophila melanogaster with 11 samples.

Results

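Heat shock proteins are the chaperones that a cell makes in larger amounts when its proteins are damaged, and co-chaperones are the partners that load, time and release them. The genes described here are 10 such genes of the fruit fly: the small heat shock proteins Hsp23, Hsp26 and Hsp27, the Hsp90 chaperone Hsp83, the constitutive Hsp70 Hsc70-4, the Hsp40-type partner DnaJ-1, the BAG-domain partner starvin (stv), the Hsp70-Hsp90 adaptor Stip1, the mitochondrial chaperonin Hsp60A, and the heat shock factor Hsf. They were found by symbol in the annotation of the array. Of the 10 genes, 8 had a probe set (the group of short probes that reads a transcript), 1 each, out of 18952 probe sets on the array, and all 8 passed the filter on low values that left 9104 probe sets for testing. Hsp23 and Hsp83 were not analysed here, because the annotation table lists no probe set for them.

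The RNA came from whole heads of adult female w1118 flies, a white-eyed laboratory strain, collected within 24 h of eclosion and kept for 16 days on prepared food. The joint exposure had 0.1 mg/ml nicotine in the food throughout and 5 mM paraquat for the last 6 days (n = 3 arrays). The paraquat group had the same paraquat without nicotine (n = 2), the nicotine group the same nicotine without paraquat (n = 3), and the control neither agent (n = 3). Each array held RNA of 20 pooled heads, so it reads a mixture of brain, eye, fat body and muscle, and fewer cells of a type and less RNA per cell cannot be told apart. The design calls the arrays biological replicates, but nothing says whether the flies were reared separately, so the spread behind the p-values may be partly technical.

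In flies, as in other animals, unfolded proteins draw the chaperones away from Hsf, which then forms trimers, binds heat shock elements in promoters and switches on the small heat shock genes, the Hsp70 genes and their partners. Small heat shock proteins hold unfolded proteins without using ATP, and Hsp70 and Hsp90 refold them with ATP under the direction of co-chaperones. Paraquat is a redox-cycling herbicide that makes superoxide and is used in flies to model damage to dopamine neurons, and nicotine acts on nicotinic acetylcholine receptors.

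None of the 8 transcripts passed the test with paraquat, with nicotine or with both. The 2 small heat shock transcripts, Hsp26 and Hsp27, instead differed several-fold between arrays of the same group, and DnaJ-1 and stv varied with them. No correlation of Stip1, Hsp60A or Hsc70-4 with them passed. Stip1, Hsp60A and Hsc70-4 each had their highest group mean with paraquat alone and their lowest with nicotine alone. Hsf itself varied by no more than 1.51-fold over all 11 arrays.

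Between 8774 and 9046 probe sets lay at log2 4 or above on each array, and an array's average correlation with its 10 companions ran from 0.977 in joint exposure replicate 1 to 0.991. The difference between the 3' and 5' control probe sets, which grows as RNA is degraded or copied incompletely, was lowest in control replicate 3, at log2 5.87, and 10.3 in joint exposure replicates 1 and 3. Markers of the labelled tissue were present: 4 of 4 measured photoreceptor genes, 5 of 5 neuronal genes, 4 of 4 glial genes and 5 of 5 head fat body genes lay above log2 4 on all 11 arrays. The summed log2 level of the neuronal markers was 45.1 to 47.1 in the joint exposure, 46.7 to 46.9 with paraquat, 47.1 to 49.6 with nicotine and 47.7 to 50.4 in control. That of the head fat body markers was 69.8 to 76.2 in the joint exposure, 73.3 to 73.4 with paraquat, 75.9 to 76.7 with nicotine and 76.1 to 77.1 in control, so that the paraquat arrays lay below all control arrays. Digestive tract markers, of which 2 of 4 measured were above log2 4 on all arrays, summed to 42.0 to 54.8 in the joint exposure, 32.2 to 33.1 with paraquat, 18.5 to 41.4 with nicotine and 26.7 to 40.2 in control. Ovary markers, of which 0 of 3 measured were above log2 4 on all arrays, summed to 14.6 to 18.7 in the joint exposure, 13.7 to 14.8 with paraquat, 8.68 to 20.4 with nicotine and 7.62 to 12.1 in control, so that the joint exposure and paraquat arrays lay above all control arrays. Their part in the differences between exposure groups was not tested. All values that follow are log2 expression as deposited, and a level is compared only between arrays for 1 probe set, never between probe sets.

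Hsp27, a small heat shock protein found in the nucleus of fly cells, was measured by probe set 1628117_at and had the widest spread. It read 12.50, 12.98 and 9.59 in the joint exposure, 11.22 and 10.81 with paraquat, 11.92, 10.99 and 10.76 with nicotine, and 11.14, 12.97 and 9.08 in control. High and low arrays occurred within the same group: the control arrays alone spanned 14.8-fold and the joint exposure arrays 10.5-fold. The means, from high to low, were 11.69 ± 1.83 in the joint exposure, 11.22 ± 0.61 with nicotine, 11.06 ± 1.95 in control and 11.02 ± 0.29 with paraquat (SD), and no neighbours in that order differed beyond their spread.

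Hsp26, its cytosolic relative (probe set 1635044_at), followed the same arrays. Its log2 values were 13.47, 13.99 and 11.79 in the joint exposure, 12.66 and 12.62 with paraquat, 13.47, 12.60 and 12.28 with nicotine, and 12.60, 13.89 and 11.38 in control. Again the highest arrays were replicate 2 of the joint exposure and of control, and the lowest were replicate 3 of the same groups. For both genes the array numbered 3 was the lowest of its group in all 4 groups. The order of the Hsp26 means was joint exposure (13.08 ± 1.15), nicotine (12.78 ± 0.62), paraquat (12.64 ± 0.03) and control (12.62 ± 1.25, SD), and no neighbours differed beyond their spread.

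DnaJ-1 encodes a J-domain protein that stimulates the ATPase of Hsp70 (probe set 1637059_s_at). It read 13.97, 14.05 and 13.02 in the joint exposure, 13.65 and 13.59 with paraquat, 13.68, 13.54 and 13.38 with nicotine, and 13.80, 14.09 and 13.27 in control. The whole range was 2.11-fold, and the order of the arrays within each group was that of Hsp27. The means lay between 13.54 ± 0.15 with nicotine and 13.72 ± 0.42 in control (SD), and no neighbours in their order differed beyond their spread. The suffix _s_at marks probes that match more than 1 transcript, so DnaJ-1, stv, Hsc70-4 and Hsp60A are read across such transcripts.

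Starvin is the fly BAG-domain protein that helps Hsp70 release its clients and, in muscle, feeds damaged filament proteins to autophagy. Its probe set 1634364_s_at read 12.41, 12.65 and 11.89 in the joint exposure, 11.80 and 12.14 with paraquat, 12.42, 11.87 and 11.89 with nicotine, and 11.98, 12.48 and 11.85 in control. All group pairs overlapped, over a range of 1.80-fold. The means ran from 12.32 ± 0.39 in the joint exposure to 11.97 ± 0.24 with paraquat (SD), with nicotine and control between them and no neighbours apart beyond their spread.

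**Figure D1:**
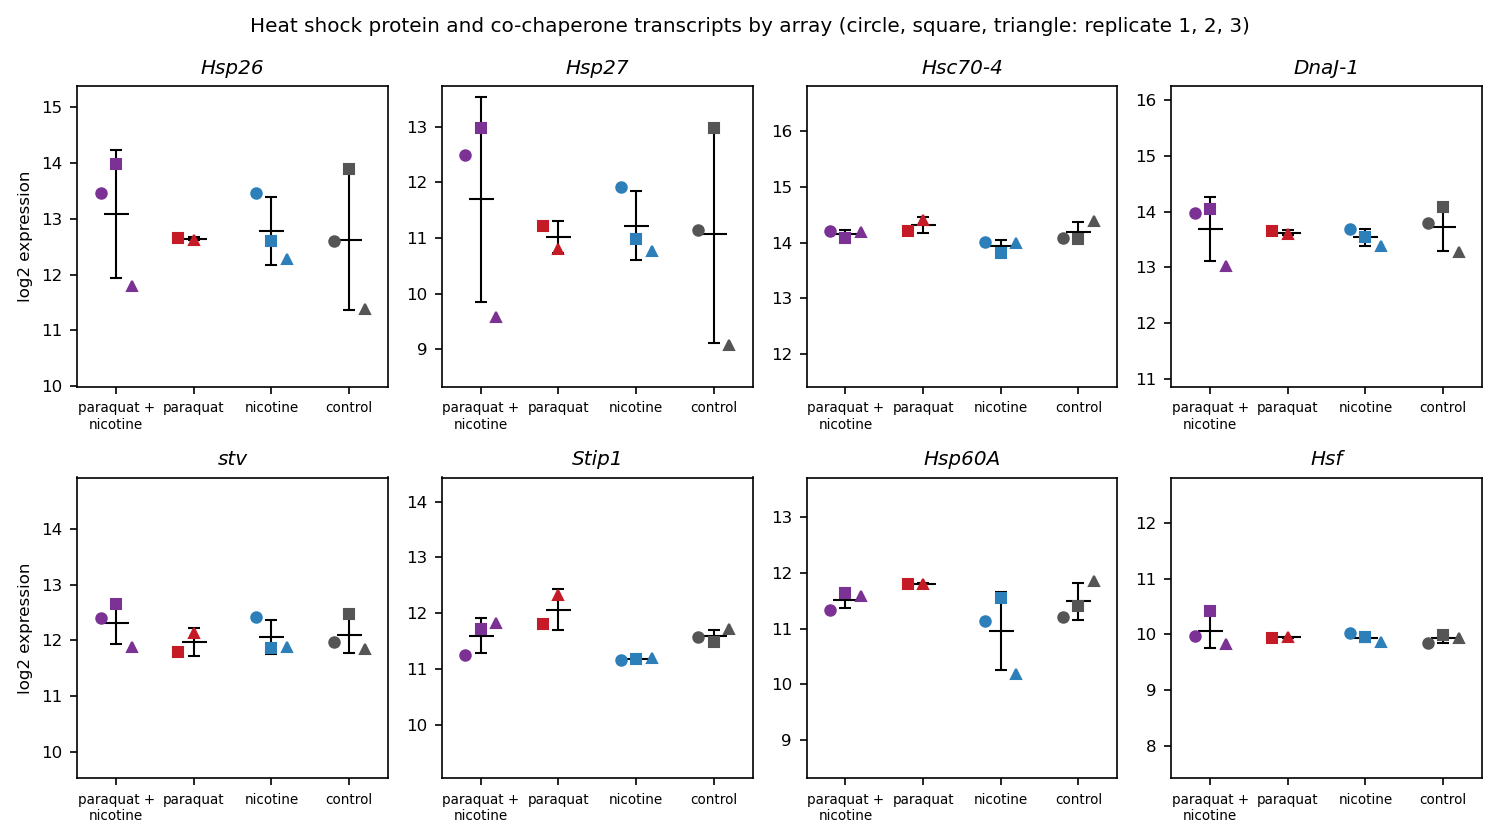
Log2 expression of the 8 measured transcripts on each of the 11 arrays (vertical axis, the same span in every panel; horizontal axis, exposure group); symbols mark the replicate number and bars the group mean ± SD. Hsp26 and Hsp27 spread over several log2 units within the joint exposure and the control, while Stip1 had its lowest arrays with nicotine alone and Hsc70-4 and Hsf hardly varied.

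Stip1 is the adaptor that hands clients from Hsp70 to Hsp90 (probe set 1630076_at). Its log2 values were 11.25, 11.72 and 11.83 in the joint exposure, 11.80 and 12.32 with paraquat, 11.15, 11.18 and 11.20 with nicotine, and 11.58, 11.49 and 11.71 in control. Both paraquat arrays lay above all 3 control arrays, and all 3 joint exposure arrays lay above the 3 nicotine arrays, joint exposure replicate 1 only slightly. The order of the means was paraquat (12.06 ± 0.37), joint exposure (11.60 ± 0.31), control (11.59 ± 0.11) and nicotine (11.17 ± 0.02, SD), and only the control and nicotine arrays did not overlap among these neighbours.

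Hsp60A folds proteins imported into mitochondria (probe set 1641286_s_at). It read 11.34, 11.64 and 11.59 in the joint exposure, 11.81 and 11.80 with paraquat, 11.14, 11.55 and 10.18 with nicotine, and 11.21, 11.41 and 11.85 in control. Nicotine replicate 3 was the lowest array by far, and nicotine replicate 2 lay within the control range. The means ran in the same order as for Stip1, with paraquat at 11.80 ± 0.01, the joint exposure at 11.52 ± 0.16, control at 11.49 ± 0.33 and nicotine at 10.96 ± 0.70 (SD). Among neighbours, only the joint exposure and paraquat arrays did not overlap.

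Hsc70-4, the constitutive Hsp70 that also strips clathrin from synaptic vesicles (probe set 1630637_s_at), read 14.20, 14.08 and 14.19 in the joint exposure, 14.21 and 14.41 with paraquat, 14.01, 13.81 and 14.00 with nicotine, and 14.08, 14.07 and 14.39 in control. The 3 nicotine arrays were the 3 lowest of the 11, and the whole range was 1.52-fold. The order of the means was paraquat (14.31 ± 0.14), control (14.18 ± 0.19), joint exposure (14.16 ± 0.07) and nicotine (13.94 ± 0.11, SD), and of these neighbours only the joint exposure and nicotine arrays did not overlap.

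Hsf, the transcription factor of the heat shock response (probe set 1626844_at), read 9.97, 10.41 and 9.82 in the joint exposure, 9.94 and 9.95 with paraquat, 10.02, 9.95 and 9.86 with nicotine, and 9.85, 9.99 and 9.93 in control. Only joint exposure replicate 2, which was also the highest array for Hsp26 and Hsp27, stood clear of the others. The group means lay between 9.93 ± 0.07 in control and 10.07 ± 0.31 in the joint exposure (SD), within their spread.

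The paraquat comparison averaged the difference between paraquat and control with that between the joint exposure and nicotine. The limma model called 0 of the 8 transcripts at an adjusted p below 0.05, where 3.69% of all tested probe sets were called, and 1 of 8 (Stip1) had an unadjusted p below 0.05, as did 17.6% of all probe sets. Stip1 was higher by 0.45 ± 0.15 on the log2 scale (SE, 95% interval 0.11 to 0.78, adjusted p = 0.148), or 1.36-fold. With limma's array weights, which count arrays that depart from their group less, the Stip1 estimate was 0.56 ± 0.11 and it passed, at an adjusted p of 0.00975. Under that setting 17.9% of all probe sets passed as well. Hsp60A was at 0.44 ± 0.24 (interval -0.10 to 0.98, adjusted p = 0.389) and Hsc70-4 at 0.18 ± 0.12 (-0.08 to 0.43, adjusted p = 0.484).

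The other 5 transcripts had estimates between 0.02 and 0.21, with wide intervals for Hsp27 and Hsp26. With paraquat, averaged over both nicotine states, Hsp27 was at 0.21 (95% interval -1.54 to 1.96) and Hsp26 at 0.16 (-1.0 to 1.32), so a doubling or its inverse lay inside both intervals. DnaJ-1 was at 0.02 (-0.48 to 0.53), stv at 0.06 (-0.38 to 0.51) and Hsf at 0.07 (-0.22 to 0.36). With array weights the same paraquat estimates were -1.08 for Hsp27, -0.75 for Hsp26, -0.28 for DnaJ-1 and -0.26 for stv, and none was called. All 8 estimates were above 0 in the unweighted fit, with a median of 0.17, while 49% of all tested probe sets were above 0, with a median of -0.01.

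Within the flies without nicotine, paraquat called 0 of the 8 transcripts, against 0.341% of all probe sets. Among the flies on nicotine it called 0 of 8, against 0.45% of all. In both, 0 of the 8 had an unadjusted p below 0.05 in limma. The groups did not overlap for 1 transcript without nicotine, Stip1, where 31.8% of all probe sets did not overlap with only 2 paraquat arrays. On nicotine they did not overlap for 2 transcripts, Stip1 and Hsc70-4, against 15% of all probe sets. The Stip1 difference was 0.47 ± 0.22 without nicotine (adjusted p = 0.511) and 0.42 ± 0.20 on nicotine (adjusted p = 0.473), so the size was about the same in either nicotine state. Hsp60A was at 0.32 ± 0.36 without nicotine and at 0.57 ± 0.32 on nicotine.

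Nicotine, averaged over both paraquat states, called 0 of the 8 transcripts and 0% of all probe sets. In limma, Stip1 alone had an unadjusted p below 0.05, as did 3.69% of all probe sets. It was at -0.44 ± 0.15 (95% interval -0.78 to -0.11, adjusted p = 0.833), Hsp60A at -0.41 ± 0.24 and Hsc70-4 at -0.20 ± 0.12. The other 5 transcripts lay between -0.06 for DnaJ-1 and 0.42 for Hsp27, where the SE was 0.78. Over the 8 transcripts, 4 were above 0 with nicotine, and 42.7% of all probe sets were.

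Nicotine without paraquat called 0 of 8 transcripts and 0% of all probe sets, with 0 of 8 at an unadjusted p below 0.05 in limma. Here the groups did not overlap for Stip1 and Hsc70-4, both lower with nicotine, which is 2 of 8 against 5.83% of all probe sets. Nicotine on top of paraquat likewise called 0 of 8 and 0% of all, again with 0 of 8 at an unadjusted p below 0.05. The non-overlapping transcripts were then Hsc70-4 and Hsp60A, lower in the joint exposure than with paraquat alone, 2 of 8 against 18.3% of all. Because the paraquat and nicotine comparisons share the same arrays, a low nicotine group enters both: the Stip1 difference between joint exposure and nicotine alone uses the same 3 nicotine arrays as that between nicotine alone and control.

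The joint exposure against control called 0 of 8 transcripts, against 0.33% of all probe sets, with 0 of 8 at an unadjusted p below 0.05 in limma. No transcript had groups without overlap, against 19.7% of all. Stip1, whose estimate was above 0 with paraquat in either nicotine state and below 0 with nicotine in either paraquat state, was at 0.006 ± 0.20 here (95% interval -0.44 to 0.45). Hsp27 was at 0.63 ± 1.04 and Hsp26 at 0.46 ± 0.69.

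The interaction asks whether the paraquat difference depended on nicotine. It called 0 of 8 transcripts and 0% of all probe sets, with 0 of 8 at an unadjusted p below 0.05 in limma. The estimate nearest to 0 was Stip1 at -0.05 ± 0.30 (95% interval -0.72 to 0.62), and the farthest was Hsp27 at 0.51 ± 1.56 (-2.98 to 4.01). The Hsp26 interval was nearly as wide, at -2.04 to 2.60.

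**Figure D2:**
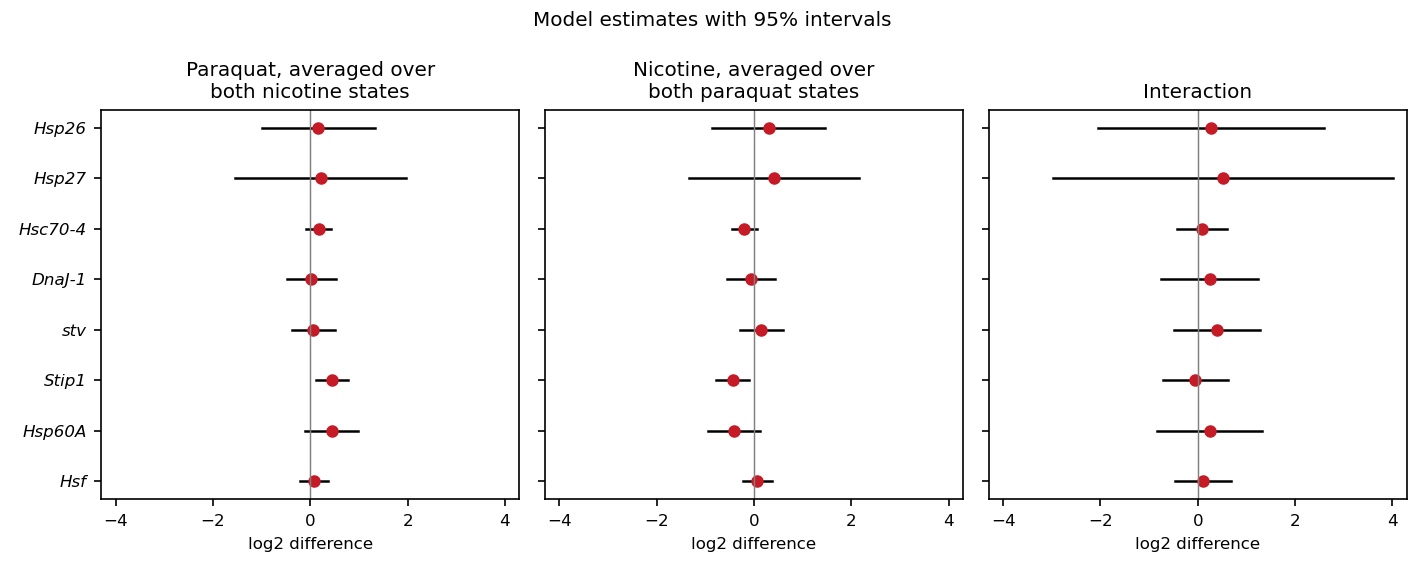
Estimated log2 differences (horizontal axis) of the 8 transcripts with their 95% intervals, for paraquat averaged over nicotine states, nicotine averaged over paraquat states, and the interaction. The Stip1 interval lies above 0 with paraquat and below 0 with nicotine before adjustment, and the Hsp27 intervals are the widest in all 3 panels.

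These intervals rest on the spread left after subtracting group means, which eBayes moderates toward a value common to all probe sets. Before that moderation the spread was 1.47 for Hsp27, larger than in 98.6% of the 9104 tested probe sets, and 0.967 for Hsp26, larger than in 95.1%. Hsp60A (0.423), DnaJ-1 (0.388) and stv (0.333) lay near the middle of all probe sets. The Stip1 spread was 0.223, that of Hsf 0.174, and that of Hsc70-4 0.133, which is larger than in only 5.55% of probe sets.

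The 2 transcripts with the widest spread moved together from array to array. Over the 11 arrays Hsp26 and Hsp27 had Pearson r = 0.988 (permutation p = 1e-05, the smallest that 100000 permutations can give; 0.00028 after Benjamini-Hochberg adjustment over 28 pairs) and Spearman rho = 0.964 (adjusted permutation p = 0.00042). Without the 2 arrays farthest from the Hsp26 median r was 0.979, and after subtracting the group means it was 0.988. Arrays high for 1 of these genes were also high for the other in the joint exposure, nicotine and control groups. Neither of the 2 paraquat arrays was among the highest.

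DnaJ-1 followed Hsp27, with r = 0.932 (adjusted permutation p = 0.00154) and rho = 0.945 (0.00042), and r was 0.939 without the 2 farthest arrays and 0.976 after subtracting group means. Its r with Hsp26 was 0.906 (adjusted permutation p = 0.00196) and rho 0.909 (0.00243), with 0.839 and 0.956 for the same 2 checks. For stv, r was 0.885 with Hsp26 (adjusted permutation p = 0.00196; rho 0.773, 0.0304), 0.838 with Hsp27 (0.00426; rho 0.718, 0.0416) and 0.765 with DnaJ-1 (0.0233; rho 0.736, 0.0399). Without the 2 farthest arrays these 3 stood at 0.786, 0.803 and 0.768. So 4 transcripts of different chaperone classes, a pair of holdases, an Hsp40 and a BAG protein, formed 1 correlated block over these arrays. Each pair in it passed for both r and rho.

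Hsf, the factor that drives such genes, was correlated with stv at r = 0.731 (adjusted permutation p = 0.00555; rho 0.692, 0.0474) and with Hsp26 at r = 0.666 (0.0343; rho 0.856, 0.00875). Without the 2 farthest arrays these were 0.600 and 0.605. With Hsp27 its r was 0.623 (adjusted permutation p = 0.0780; rho 0.797, 0.0248), and 0.778 without the 2 farthest arrays. With DnaJ-1 its r was 0.591 (adjusted permutation p = 0.114) and rho 0.706 (0.0419). There r was 0.601 without the 2 arrays farthest from the DnaJ-1 median, which left joint exposure replicate 2 in. By rho, Hsf passed with each transcript of the block, and by r only with stv and Hsp26. The Hsf range was narrow, and joint exposure replicate 2 was its single high array.

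Hsc70-4 and Stip1 were not part of that block. Their r with each other was 0.761 (adjusted permutation p = 0.0233) and rho 0.791 (0.0248), 0.633 without the 2 farthest arrays, and 0.343 after subtracting group means. Each had a negative r with Hsp26 and Hsp27, between -0.374 and -0.250, with adjusted permutation p-values of 0.516 to 0.715. After subtracting group means these r lay between -0.56 and -0.417. With DnaJ-1 they were then -0.521 for Hsc70-4 and -0.533 for Stip1, and with stv -0.144 and -0.152. Hsc70-4 and Hsp60A had r = 0.491 (adjusted permutation p = 0.289; rho 0.736, 0.0399), 0.278 without the 2 farthest arrays and -0.041 after subtracting group means. Stip1 and Hsp60A had r = 0.620 (adjusted permutation p = 0.114; rho 0.727, 0.0416), 0.619 without the 2 farthest arrays and 0.180 after subtracting group means.

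**Figure D3:**
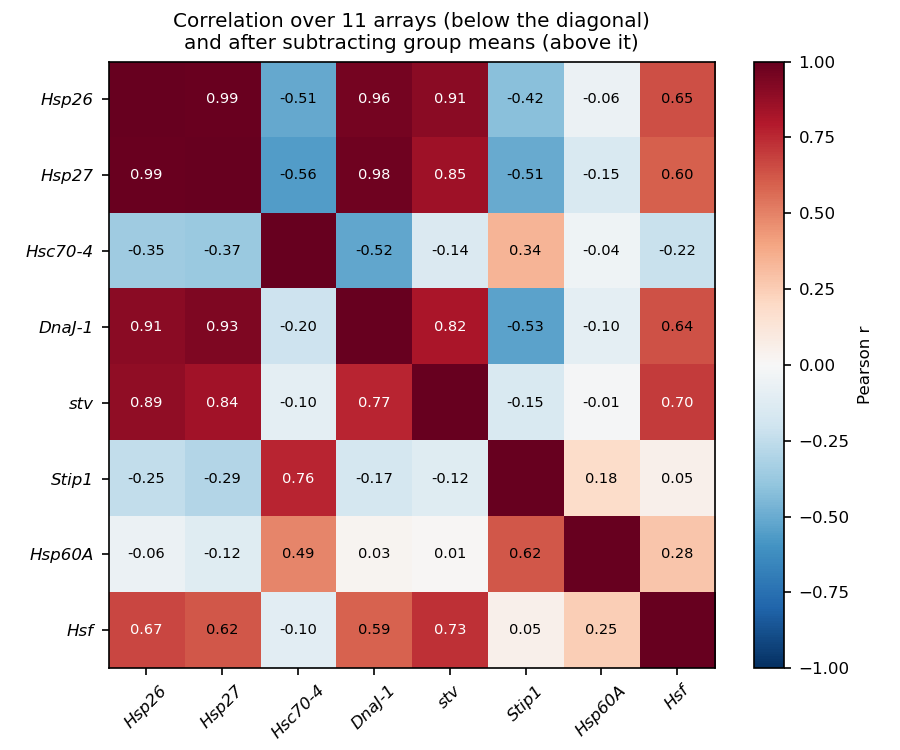
Pearson correlation of each pair of the 8 transcripts over the 11 arrays (below the diagonal) and after subtracting group means (above it); the colour scale runs from -1 to 1. Hsp26, Hsp27, DnaJ-1 and stv form a block of high values on both sides of the diagonal, while Stip1 with Hsc70-4 goes from 0.76 below it to 0.34 above it.

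Some classical heat-inducible transcripts outside the 10 genes correlated with this block by Pearson's r. Averaging the standardized Hsp26 and Hsp27 profiles gave a small heat shock protein index, in SD units, of 0.893, 1.394 and -1.269 in the joint exposure, -0.097 and -0.286 with paraquat, 0.664, -0.228 and -0.514 with nicotine, and -0.166, 1.328 and -1.718 in control. Among 11 probe sets of other heat-inducible genes, 5 correlated with the index at an adjusted permutation p below 0.05 for r, and 0 did so for rho, whose smallest adjusted value was 0.0909. These 5 read Hsp68 and the Hsp70A and Hsp70B genes, the inducible members of the Hsp70 family. The Hsp70B probe sets name overlapping sets of genes, so the 5 do not count as separate genes. Among the rest, r was below 0 for CG4461 (-0.598), CG7409 (-0.514, and -0.709 after subtracting group means) and 1 l(2)efl probe set (-0.211). It was above 0 for the other l(2)efl probe set (0.218) and for the probe sets of Hsp22 and CG4456.

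Hsp70Aa and Hsp70Ab, near-identical copies read by 1 shared probe set, had r = 0.836 with the index (adjusted permutation p = 0.00759; rho 0.764, 0.0909), and 0.966 without the 2 farthest arrays. Their log2 values were 12.76, 13.42 and 10.27 in the joint exposure, 11.56 and 11.73 with paraquat, 13.12, 11.89 and 11.31 with nicotine, and 11.52, 13.21 and 11.86 in control. Hsp68 had r = 0.770 (adjusted permutation p = 0.0200; rho 0.664, 0.114) and read 10.68, 13.27 and 9.25 in the joint exposure, 10.79 and 10.88 with paraquat, 11.95, 10.22 and 9.73 with nicotine, and 11.05, 13.11 and 10.83 in control. Both were highest in replicate 2 of the joint exposure and of control, and lowest in joint exposure replicate 3. The 3 probe sets shared by Hsp70B genes had r of 0.726, 0.744 and 0.853 (adjusted permutation p = 0.0268, 0.0257 and 0.00319; rho 0.582, 0.527 and 0.673, with 0.121, 0.137 and 0.114). Without the 2 farthest arrays r was 0.861 for Hsp68 and 0.849, 0.835 and 0.860 for these 3, of which the last lay below log2 4 on 7 of the 11 arrays.

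Over all 11 arrays, no technical or cell type measure passed the test of a relation with the index. Of 12 relations, with 8 marker sums, the 2 differences between 3' and upstream control probe sets, the array median and the mean array correlation, 0 had an adjusted permutation p below 0.05, and the smallest was 0.732. The index had r = 0.211 with the 3' minus 5' difference (rho -0.236, adjusted permutation p = 0.791 and 0.833), -0.487 with the neuronal sum (rho -0.445, 0.732 and 0.778) and -0.511 with the muscle sum (rho -0.418, 0.732 and 0.778). Without the 2 arrays farthest from the median index these r were -0.448, -0.087 and -0.488, and after subtracting group means they were 0.125, -0.628 and -0.608. With the haemocyte sum r was -0.184 (rho -0.373, adjusted permutation p = 0.791 and 0.778), and -0.696 without those 2 arrays. A p that misses the threshold does not show that these measures were unrelated to the index.

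The 3' minus middle difference was set against each of the 8 transcripts, and 0 of these 8 relations passed. Its r was 0.214 with Hsp26 (rho -0.264), 0.276 with Hsp27 (rho -0.155), 0.156 with DnaJ-1 (rho -0.173) and 0.186 with stv (rho -0.109), with an adjusted permutation p of 0.752 for each r and 0.912 for each rho. Without the 2 arrays farthest from its median, which were joint exposure replicate 1 and control replicate 3, the sign turned, and r was -0.793 for Hsp26, -0.770 for Hsp27, -0.824 for DnaJ-1 and -0.563 for stv. After subtracting group means over all 11 arrays, r was 0.087, 0.182, 0.207 and -0.062 for the same transcripts. For Stip1, Hsp60A, Hsf and Hsc70-4, r was -0.292, -0.301, -0.171 and -0.080 over all arrays. After subtracting group means it was -0.613, -0.536, -0.583 and -0.059 for these. With the 3' minus 5' difference in its place, r after subtracting group means was -0.217, -0.691, -0.571 and -0.347. Over all arrays each of these relations had an adjusted permutation p of 0.787 for r. The part of RNA quality in the levels of these transcripts was not tested further.

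**Figure D4:**
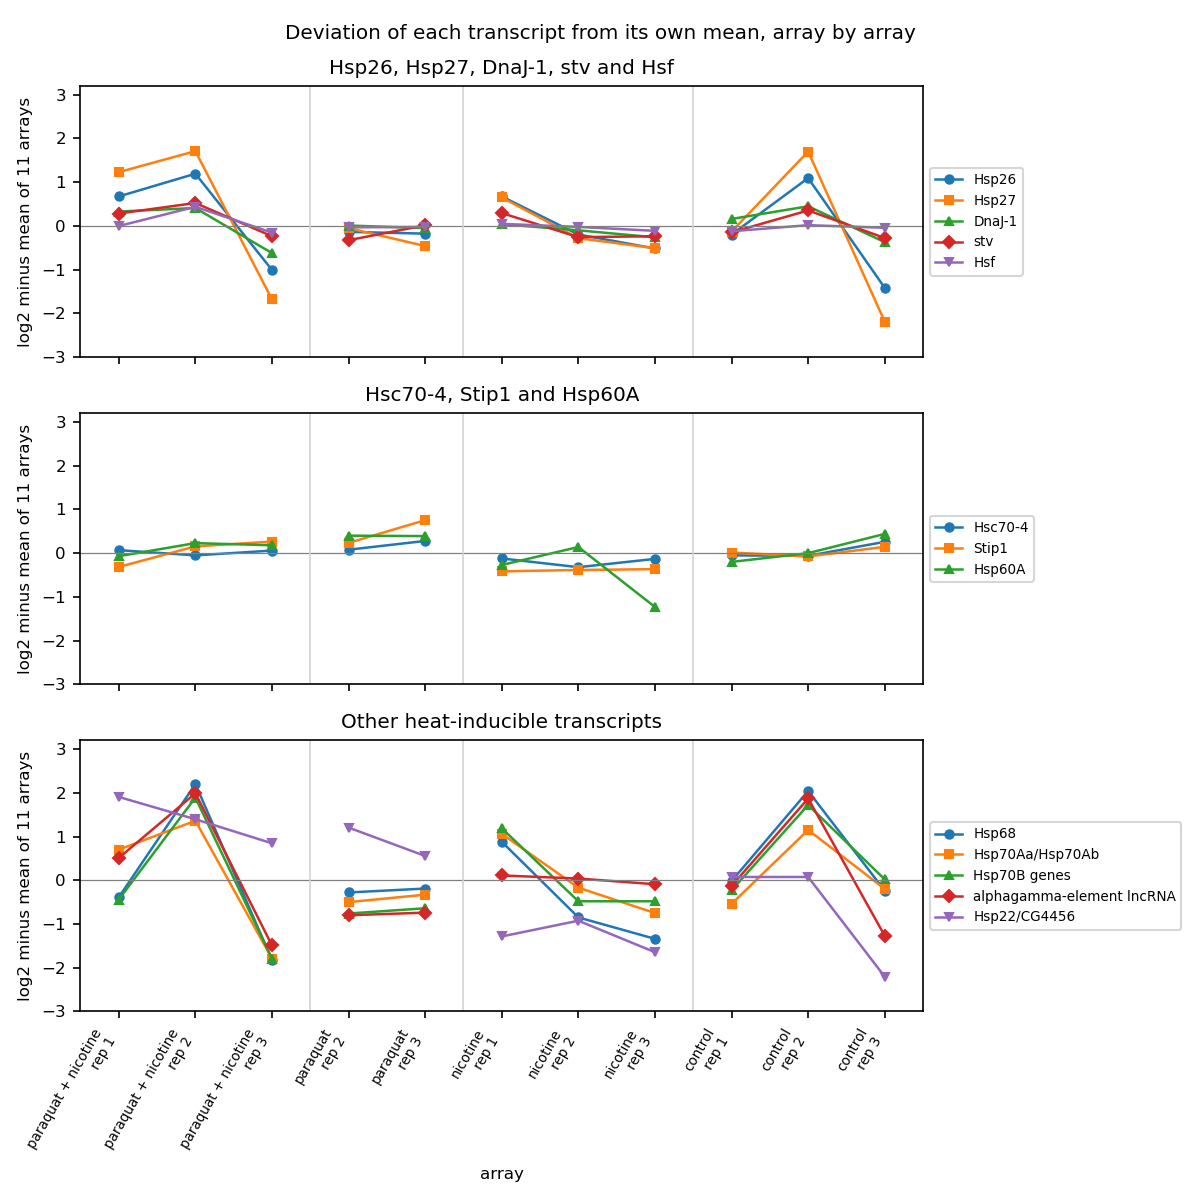
Log2 deviation of each transcript from its own mean over the 11 arrays (vertical axis), array by array within each exposure group (horizontal axis); lines only link the points of a transcript. Hsp26, Hsp27, DnaJ-1 and stv (top) peak in replicate 2 of the joint exposure and of control and dip in replicate 3 of both; Hsp68, Hsp70 and the alphagamma-element RNA (bottom) share the peaks and the dip of joint exposure replicate 3, and Hsc70-4, Stip1 and Hsp60A (middle) share neither. The Hsp22/CG4456 line is high on the arrays with paraquat.

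Among 7793 tested probe sets of exactly 1 other gene, the profile most like the index over the 11 arrays was that of the alphagamma-element, a long noncoding RNA of the Hsp70 locus (lncRNA:alphagamma-element:CR32865, probe set 1634187_x_at, r = 0.906). In the RefSeq annotation of Drosophila Release 6 it lies on chromosome arm 3R between Hsp70Ba and Hsp70Bbb. Its log2 values were 11.24, 12.72 and 9.24 in the joint exposure, 9.93 and 9.99 with paraquat, 10.84, 10.77 and 10.64 with nicotine, and 10.60, 12.60 and 9.46 in control. The suffix _x_at marks probes that can bind several sequences. The next 4 were CG32603 (r = 0.867), Cpr47Ee (0.839), DCX-EMAP (0.818) and Sec16 (0.817), given as a description.

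Hsp26 and Hsp27 lie in the small heat shock gene cluster on chromosome arm 3L, where RefSeq lists 8 protein-coding genes in the order Hsp67Bc, CG4456, Hsp22, CG4461, Hsp26, Hsp67Ba, Hsp23 and Hsp27. Hsp22, the mitochondrial small heat shock protein, overlaps CG4456 and shares both of its probe sets with it, so neither gene can be read alone. These shared probe sets had r of 0.582 and 0.475 with the Hsp26 and Hsp27 index (adjusted permutation p = 0.0984 and 0.172; rho 0.600 and 0.538, with 0.121 and 0.137), and of 0.447 and 0.083 without the 2 farthest arrays. After subtracting group means their r was higher, at 0.787 and 0.741.

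One Hsp22 and CG4456 probe set (1629061_s_at) read 13.66, 13.70 and 13.45 in the joint exposure, 13.56 and 13.71 with paraquat, 13.54, 13.33 and 13.22 with nicotine, and 13.44, 13.56 and 13.39 in control, and its paraquat difference was 0.21 ± 0.11 (adjusted p = 0.395). The other (1630487_s_at) read 7.92, 7.41 and 6.86 in the joint exposure, 7.22 and 6.57 with paraquat, 4.73, 5.09 and 4.37 with nicotine, and 6.09, 6.09 and 3.81 in control. All 5 arrays with paraquat lay above all 6 without it, but the share of all probe sets that separate in this way was not counted. This probe set rose with paraquat by 2.12 ± 0.43 on the log2 scale (adjusted p = 0.0285), so that only 1 of the 2 probe sets of these genes passed. The call held in 11 of 19 alternative fits. It was lost without any 1 of 6 arrays, at adjusted p-values from 0.0516 without joint exposure replicate 1 to 0.114 without paraquat replicate 2, with no filter on low values (0.139) and with the 3' minus 5' difference as a covariate (0.0562). In these 8 fits the difference lay between 1.83, with the covariate, and 2.28.

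For the wider chaperone system, 5 lists held 70 other genes with a probe set, not all of which passed the filter on low values. Genes tested were 12 heat-inducible, 18 Hsp70-class, 11 Hsp90-class, 8 mitochondrial, and 14 chaperonin and prefoldin genes. With paraquat, averaged over both nicotine states, 1 of 11 probe sets of the other heat-inducible genes passed, the Hsp22 and CG4456 one above, against 3.69% of all probe sets. Of the rest, only 2 were above 0, and the median of the list was -0.26 against -0.01 for all probe sets. Of 14 genes of the cytosolic chaperonin, the ring that folds actin and tubulin, and of its partner prefoldin, 1 rose, 0 fell, and 12 were above 0, with a median of 0.29. An unadjusted p below 0.05 in limma was reached by 2 of 11 heat-inducible and 7 of 14 chaperonin and prefoldin probe sets, and by 17.6% of all probe sets.

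CCT5, a subunit of that chaperonin ring (probe set 1624419_a_at), was the gene that rose. It read 11.47, 11.11 and 11.80 in the joint exposure, 11.61 and 11.88 with paraquat, 10.83, 10.61 and 10.79 with nicotine, and 11.01, 10.77 and 10.85 in control. All 5 arrays with paraquat exceeded all 6 without it, a separation whose share over all probe sets was not counted. The difference was 0.79 ± 0.15 (adjusted p = 0.0188). It passed in 16 of 20 alternative fits, and was lost without control replicate 2 (adjusted p = 0.0556), without paraquat replicate 3 (0.135), without joint exposure replicate 1 and control replicate 3, left out as a pair (0.0553) and with no filter on low values (0.0514). In these 4 fits the difference lay between 0.73 and 0.79.

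The remaining lists had no call with paraquat. Of 21 probe sets of Hsp70-class proteins and Hsp70 co-chaperones, 9 were above 0 (median -0.03), and the smallest p was that of Tpr2, a J-domain protein with tetratricopeptide repeats, at 0.60 ± 0.19 (adjusted p = 0.129). Of 11 probe sets of Hsp90-class proteins and Hsp90 co-chaperones, 9 were above 0 (median 0.16), led by nudC at 0.48 ± 0.20 (adjusted p = 0.253). Of 8 mitochondrial chaperone probe sets, 5 were above 0 (median 0.19). The smallest p was that of CG9920, which was lower with paraquat, at -2.02 ± 0.56 (adjusted p = 0.0855). CG9920 lay below log2 4 on all 5 arrays with paraquat. Of these 3 lists, 2 of 21, 1 of 11 and 4 of 8 probe sets had an unadjusted p below 0.05 in limma, against 17.6% of all probe sets.

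With nicotine, averaged over both paraquat states, 0 probe sets passed in any of the 5 lists, as in the whole array, and 1, 1, 2, 1 and 0 had an unadjusted p below 0.05 in limma in the heat-inducible, Hsp70, Hsp90, mitochondrial and chaperonin lists, against 3.69% of all probe sets. The smallest p in each list was that of l(2)efl, a small heat shock protein of muscle, at -0.96 ± 0.38, of CG10973 at -0.78 ± 0.30, of CG1416 at -0.42 ± 0.12, of a probe set shared by Hsp60B and Ncc69 at -1.05 ± 0.46, and of the prefoldin subunit Pfdn5 at -0.50 ± 0.27, each with an adjusted p of 0.833. The l(2)efl value is that of probe set 1626416_a_at. The other tested probe set of l(2)efl, 1627242_at, differed less, with means of 13.39 in the joint exposure, 13.54 with paraquat, 13.34 with nicotine and 13.55 in control. The list medians were -0.05, -0.08, -0.23, -0.18 and -0.17, where the median of all probe sets was -0.04. In the other 6 comparisons, 0 probe sets of the 5 lists were called, and between 0 and 5 of a list had an unadjusted p below 0.05 in limma. Over all probe sets that share was 16.5% for the joint exposure against control, 11.5% and 10.5% for paraquat with and without nicotine, 3.02% and 1.97% for nicotine with and without paraquat, and 1.23% for the interaction. With array weights the calls over the 5 lists were 11 for paraquat averaged, against 2 without weights, 6 for paraquat without nicotine, 1 for paraquat with nicotine and 2 for the joint exposure against control, and 0 for the nicotine comparisons and the interaction.

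**Figure D5:**
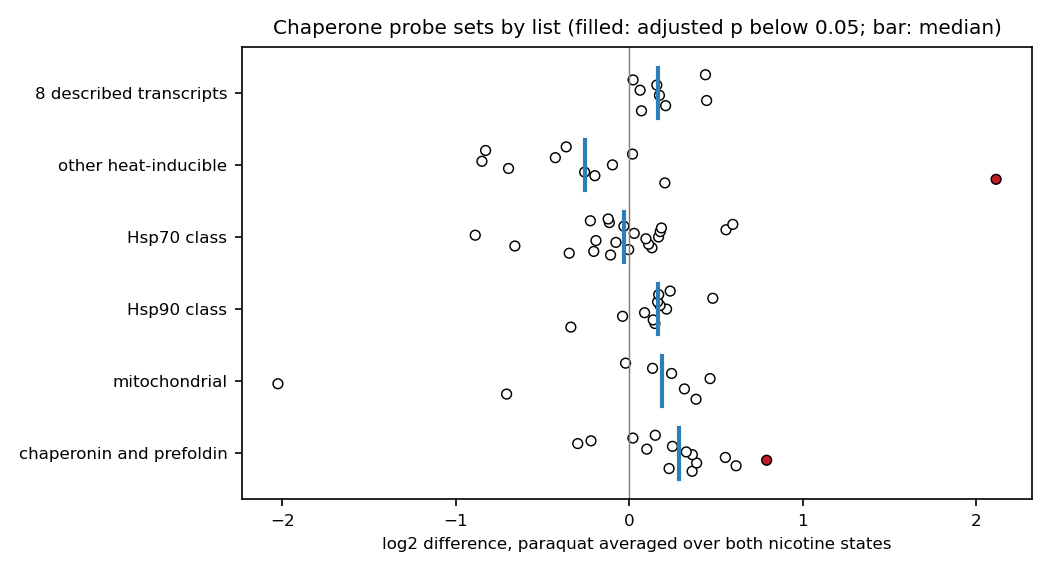
Log2 difference with paraquat averaged over both nicotine states (horizontal axis) for the 8 described transcripts and the probe sets of 5 lists of other chaperone genes; each circle is a probe set, filled where the adjusted p is below 0.05, and the vertical bar is the median. The 2 filled circles are the Hsp22 and CG4456 probe set at 2.12 and CCT5 at 0.79, and 12 of the 14 chaperonin and prefoldin probe sets lie right of 0.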

How the data were processed

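RNA was amplified from the 3' end and hybridised to Affymetrix Drosophila arrays. The deposited values are log2 expression per probe set, which the authors made with GCRMA (background adjustment, quantile normalization and probe summary), per the submitters' processing notes; its version is not given in the sources used here. A degraded paraquat replicate was left out by the submitters before normalization, per the series' design text, and was not analysed here.

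Control probe sets (183) and those reaching log2 4 on fewer than 2 of 11 arrays were left out. One mean per group was fitted in limma 3.58.1 (R 4.3.3) with eBayes (7 residual and 2.48 prior degrees of freedom), giving 8 two-sided comparisons: paraquat against control, joint exposure against nicotine, their average, nicotine against control, joint exposure against paraquat, their average, joint exposure against control, and the interaction. Adjustment (Benjamini-Hochberg) ran over all 9104 probe sets within each comparison, and calls needed an adjusted p below 0.05. Errors after ± are standard errors unless SD is written. Probe sets are "above log2 4" by value only; the number of arrays limits the precision. The fit was tested on simulated data.

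Permutation tests are two-sided with 100000 permutations, which shuffled all 11 arrays without regard to group or replicate number. Symbols come from the platform annotation, updated through gene identifiers with RefSeq (Release 6); no genome build is given for the array, so no coordinates are printed. The members, the lists and the naming rule (all members; in each list, called genes and the smallest p with paraquat and with nicotine; the 5 profiles most like the small heat shock protein index) were chosen with earlier results of these data known. The index was planned with Hsp23 and a second likeness search for Hsp83; neither has a listed probe set, so Hsp26 and Hsp27 made the index. Some listed symbols matched no gene or several. Alternatives were other filters, a variance trend, median centring, array weights, a replicate block, a 3' minus 5' covariate, 1 probe set per gene, only the groups compared, and leaving out arrays.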

Additional observations from a re-analysis of the deposited data

How the results depend on the processing

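Each comparison was refitted under 20 or 21 alternatives, of which leaving out control replicate 3 with joint exposure replicate 1 was chosen after seeing the data. The count of called transcripts stayed at 0 of 8 in every comparison and alternative except array weights, where paraquat averaged gave 1 (Stip1, adjusted p = 0.00975). Over alternatives Stip1 ranged from 0.32 to 0.58 with paraquat averaged (adjusted p 0.00975 to 0.563) and from -0.57 to -0.31 with nicotine averaged. Of 1320 estimates in 64 results, 118 in 41 results had the opposite sign with neither estimate called, 69 of them on leaving out 1 array and 21 under array weights; these are not counted as reversals. The cause was not tested. Hsp27 with paraquat averaged ran from -1.08 to 0.74.

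The main fit did not take the replicate numbers as pairs, and the labels do not say what the numbers mark. Same-numbered arrays nevertheless tended to be alike after subtracting group means. Of 15 same-numbered pairs, 9 correlated above 0.1 (-0.067 to 0.497), and the other 30 pairs ran from -0.497 to 0.333, some of them above 0.1 too. The pairs are not independent. Subtracting the group mean makes the 2 paraquat arrays exact opposites, so control replicate 3 had 0.497 with paraquat replicate 3 and -0.497 with replicate 2. Of 11 arrays, 9 correlated best with their own number. The main fit and the permutation tests do not allow for this likeness. With a replicate block, 0 of 8 transcripts were called in each comparison, and Stip1 was at 0.41 (paraquat averaged, adjusted p = 0.143) and -0.41 (nicotine averaged). For paraquat averaged, the block lowered the SE from 0.78 to 0.57 for Hsp27 and from 0.52 to 0.39 for Hsp26. That of Hsp60A rose from 0.24 to 0.26.

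Counts over all probe sets depended on the settings. Leaving out 1 array moved the 336 calls of paraquat averaged to between 53 (without paraquat replicate 3) and 586 (without joint exposure replicate 2), the 31 without nicotine to 0 (without paraquat replicate 3) to 103, the 41 on nicotine to 12 to 242, and the 30 of the joint exposure to 5 to 381. Array weights gave 1627, 765, 312 and 278, no filter 137, 7, 9 and 1, the block 359, 9, 32 and 18, and only the groups compared 13, 2 and 3 for the last 3. The nicotine and interaction counts of 0 reached at most 32, without joint exposure replicate 3. Over the 5 lists of other chaperones, leaving out 1 array moved the 2 calls of paraquat averaged to between 0 (without paraquat replicate 3) and 4 (without control replicate 3), and no filter gave 0. Paraquat with nicotine gave 1 call, in place of 0, with the replicate block, without control replicate 3, without joint exposure replicate 2, and when joint exposure replicate 1 was left out along with control replicate 3.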

Other observations

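Within the list of 14 chaperonin and prefoldin genes, the 8 subunits of the chaperonin ring, CCT1 to CCT8, all had estimates above 0 with paraquat averaged over both nicotine states, between 0.23 for CCT2 and 0.79 for CCT5. Besides CCT5, CCT3 was at 0.62 ± 0.18 (adjusted p = 0.0998), CCT6 at 0.56 ± 0.20 (0.169) and CCT4 at 0.39 ± 0.12 (0.121). CCT4 lay between 10.99 and 11.36 in the joint exposure, 11.26 and 11.53 with paraquat, 10.71 and 10.91 with nicotine, and 10.85 and 10.95 in control. Each CCT4 array with paraquat thus lay above each array without it, and the same held for CCT3. The share of all probe sets that separate in this way was not counted. The 6 prefoldin genes, which deliver unfolded actin and tubulin to the ring, ran from -0.30 for Pfdn4 to 0.25 for Pfdn2. This split of the list was made after its values were seen, and the CCT subunits were not tested as a group.

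Of the small heat shock cluster, CG4461 lies between Hsp22 and Hsp26 on 3L and had the opposite sign of relation to the Hsp26 and Hsp27 index, at r = -0.598 (adjusted permutation p = 0.0930) and rho = -0.582 (0.121), with r = -0.464 without the 2 farthest arrays. CG4461 read 6.74, 8.0 and 8.56 in the joint exposure, 7.71 and 8.38 with paraquat, 7.90, 8.06 and 8.34 with nicotine, and 7.78, 8.38 and 9.15 in control. Its highest array, control replicate 3, was the lowest for Hsp26 and Hsp27. The same array had the lowest 3' minus 5' difference of the control probe sets, and the part of that in either value was not tested.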
